A study of Mus musculus with 9 samples.

Results

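The 3 bead arrays of DMSO-treated mouse salivary gland cancer stem cells were described on their own, 3 of the 9 arrays in the series. They were chosen by their titles, and no array of treated cells entered the normalization, the ranking or the detection calls. The other 6 arrays hold the same cells given ICG-001 or LF3 and are not described here. The cells came from C57BL/6 mice, were isolated as primary cells, and grew in DMEM/F12 with serum replacement. They received the solvent DMSO for 24 h, the control for 2 inhibitors of Wnt signalling. The labels give no transgene, deleted allele or tumour driver, no age or sex of the mice, and no number of clones or animals. Whether the 3 replicates were separate cultures is not stated, so an SD below may hold technical spread alone.

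The salivary gland is built of acinar cells, which secrete water, salts and proteins, ducts that modify the saliva, and basal and myoepithelial cells that surround both. Cancer stem cells are the tumour cells that can renew themselves and regrow a tumour. In the canonical Wnt pathway a secreted Wnt ligand binds a Frizzled receptor and an Lrp coreceptor, a destruction complex that otherwise degrades β-catenin is held back, and β-catenin enters the nucleus and binds TCF/LEF factors at target genes.

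A gene was called detected where a probe had a deposited detection p-value under 0.01 on all 3 arrays. By that rule 6881 of 16593 genes with a named probe were detected, which is 41.5%. A further 654 genes were detected on 1 or 2 arrays and 9058 on 0 arrays. Levels are normalized log2 intensities, and the detected genes ran between 5.47 and 15.26 with a median of 8.51. An undetected gene means only that its probes did not stand above background. Probes for Rpl6, Rpl17, Rps23 and Rplp2, which encode parts of every ribosome, for the elongation factor Eef1a1 and for γ-actin (Actg1) were also undetected on all 3 arrays. Ranks, percentiles and the word brightest refer to probe signals, which depend on probe sequence as well as on RNA, so they do not give the order of RNA levels among genes. Probes were detected in numbers of 10897, 10561 and 10204 of 25697 on arrays 1, 2 and 3, and mean signals were 423.2, 398.2 and 467.3. With only 3 arrays, precision is limited by their number.

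The 5 marker genes, Aldh3a1, Slpi, Vim, Wfdc2 and Aqp5, were chosen with earlier results of these data known. The 30 brightest genes were dominated by protein synthesis, but 1 of these markers, Aldh3a1, stood among them. Of these 30, 17 encode cytosolic ribosomal proteins, and 36 of the 100 brightest belong to the list of these genes, which does not hold Rpl36al (rank 44). Rplp1, a stalk protein of the large ribosomal subunit, ranked first, with deposited signals of 38846, 37478 and 41525. Quantile normalization gives the brightest probe the same value on every array, so its level has no spread. The iron store Fth1 (rank 4) stood at 14.98, 15.04 and 15.07, and the metallothionein Mt1 (rank 14), a small protein that binds zinc and copper, at 14.55, 14.58 and 14.75. Mif, a secreted cytokine, had 14.81, 14.70 and 14.51, and the constitutive chaperone Hspa8 14.54, 14.73 and 14.65. The brightest genes beside the ribosome also included α-tubulin (Tuba1b), the ATP synthase subunit Atp5b, the glycolytic enzyme Gapdh, the calcium-binding protein S100a11, the actin-binding peptide Tmsb10 and the nucleoside diphosphate kinase Nme1. The histone genes H2ac24 and H2ac20 ranked 16 and 27. The 100 brightest genes held 22.4% of the summed deposited signal of all detected genes, before background correction and normalization. Their median SD was 0.086, against 0.145 for all detected genes.

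**Figure D1:**
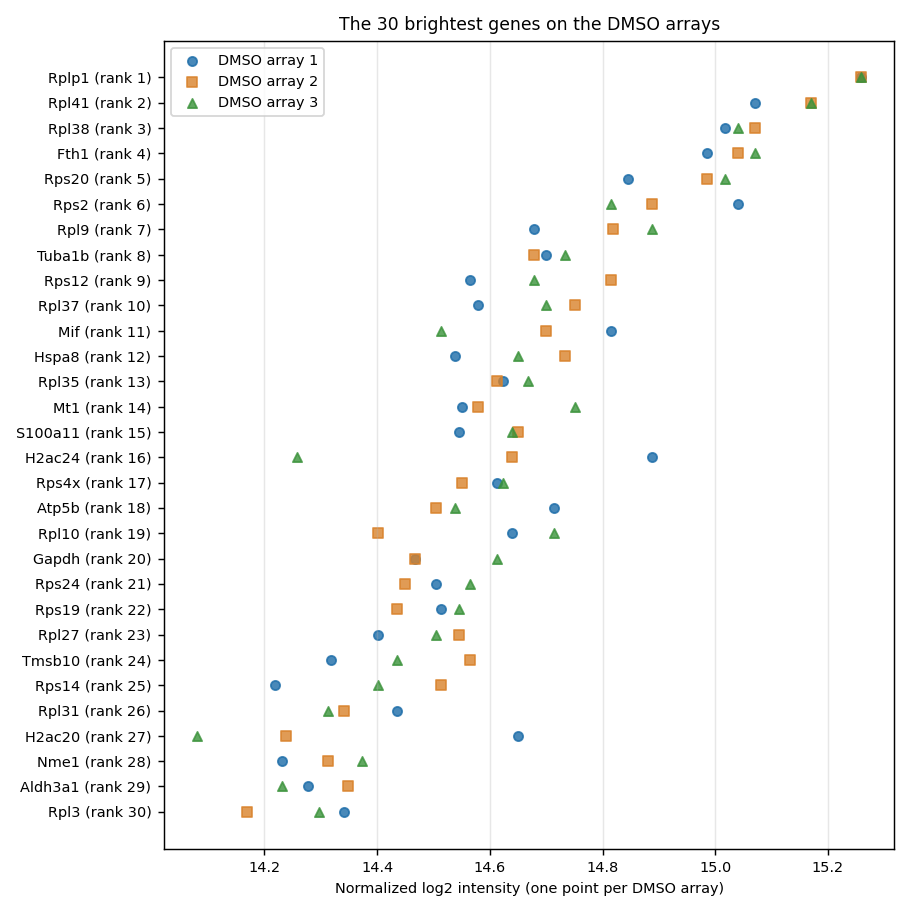
Normalized log2 intensity (horizontal axis) of the 30 brightest genes, 1 row per gene in order of rank, with 1 point for each of the 3 DMSO arrays. Ribosomal protein genes fill most rows, Aldh3a1 lies at rank 29 with points between 14.23 and 14.35, and H2ac24 and H2ac20 show the first array at the right and the third at the left.

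Aldh3a1, an aldehyde dehydrogenase that oxidizes aldehydes formed by lipid peroxidation and is abundant in cornea and some tumour cells, lies on chromosome 11 at 61208510 to 61218418 (GRCm38.p6, as all positions here). Its deposited signals were 19589, 20519 and 20709, and its levels 14.28, 14.35 and 14.23. It ranked 29 of 6881, at percentile 99.6 of the detected genes, and the 3 arrays lay within 0.12 of each other. Slpi, a secreted inhibitor of serine proteases with antimicrobial activity, had levels of 13.45, 13.73 and 13.65 and rank 73. The first array was the lowest and the other 2 lay close together.

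Vim, the intermediate filament of mesenchymal cells, had levels of 12.86, 12.76 and 12.81 (rank 175). Wfdc2, a secreted protein with 2 whey acidic protein domains found in ducts and airways, had 12.53, 12.79 and 12.77 (rank 196), and its second probe was also detected, at 7.97, 8.35 and 8.32. Aqp5, the water channel of the apical membrane of acinar cells, had 11.739, 12.119 and 12.001 (rank 387), and its second probe 10.81, 10.74 and 10.53. The probes of Aqp5 did not order the arrays alike, the first array being the lowest on the brighter probe and the highest on the dimmer one. All 5 marker genes lay above percentile 94 of detected genes on their brightest probes. Because they were chosen with earlier results of these data known, these high percentiles are not independent evidence. Averaging the detected probes of a gene moved Wfdc2 to percentile 85.4.

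Promoter windows from RefSeq were available for 4 of the marker genes, and the 100 bases before the start of each are printed because they belong to the 5 marker genes. They run 5′ to 3′ on the gene's strand, and capitals mark the TATA motif TATAAA, the nuclear factor Y motif CCAAT and the Sp1 motif GGGCGG on either strand. None of these motifs contains another. Wfdc2 has a second window, which is not printed.
Slpi, chr2:164356508-164356607, minus strand: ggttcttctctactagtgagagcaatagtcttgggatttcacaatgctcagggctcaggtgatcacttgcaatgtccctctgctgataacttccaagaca
Vim, chr2:13574211-13574310, plus strand: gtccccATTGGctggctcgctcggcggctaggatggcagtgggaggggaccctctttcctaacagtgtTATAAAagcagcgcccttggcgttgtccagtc
Wfdc2, chr2:164562615-164562714, plus strand: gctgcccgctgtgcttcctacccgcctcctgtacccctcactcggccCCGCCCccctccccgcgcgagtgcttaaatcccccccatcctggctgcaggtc
Aqp5, chr15:99590928-99591027, plus strand: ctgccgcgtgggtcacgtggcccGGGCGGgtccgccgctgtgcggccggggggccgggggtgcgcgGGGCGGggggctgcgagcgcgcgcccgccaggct
The Vim stretch held a TATAAA that starts 32 bases before the gene's start, and a CCAAT on the other strand. The stretches of Aqp5 and Wfdc2 held GGGCGG, and none of the 3 motifs was in the stretch of Slpi. Counting CG pairs over the whole 300 bases of each window gave 46 for Aqp5, 16 for Wfdc2, 11 for Vim and 2 for Slpi. In all RefSeq windows of that length the share with TATAAA was 13.6%, with CCAAT 37.4% and with GGGCGG 35.7%. Shares here and below count motifs over the 300 bases, so they do not compare directly with motifs in the 100 printed bases. For the windows of all genes on the array these shares were 11.9%, 37.8% and 49.6%, with a median of 15 CG pairs. Of the 6881 detected genes 5711 had a window (83.0%), and among their windows these shares were 6.87%, 38.5% and 65.3%, and the median number of CG pairs was 21. The windows found for 83 of the 100 brightest genes had a median of 21 as well, and those of 8 of the 10 detected epithelial defence secretions, a list that holds Slpi, a median of 5.

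Lineage lists were read next, to ask which salivary identities the probes showed. Of 234 lineage genes on the array, 51 were detected (21.8%), against 41.5% of all genes. The acinar list had 5 of 20 genes detected, with a median level of 10.47 among them, where the median level of all detected genes was 8.51. These were Aqp5, the secretory transcription factor Xbp1 (10.60 ± 0.19, mean ± SD, n = 3, as below), the sodium-potassium-chloride cotransporter Slc12a2 (10.47 ± 0.05), and the potassium and chloride channels Kcnn4 (8.16 ± 0.17) and Ano1 (6.12 ± 0.17). The secreted products amylase (Amy1), Pip, Smr3a, Prol1 and Dcpp1 and the acinar factor Bhlha15 (Mist1), with Agr2, which helps fold secreted proteins, were undetected on all 3 arrays. The ductal and luminal list had 3 of 22 genes detected: Wfdc2, the keratin Krt8 (5.82 ± 0.15) and the epithelial Ets factor Elf3 (5.51 ± 0.18). Krt7, Krt18, Krt19, Cldn3, Cldn4 and E-cadherin (Cdh1) were undetected. With a detection threshold of 0.05 the ductal count was 6, and E-cadherin, Cldn7 and Muc1 were the genes added.

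The basal epithelial list had 6 of 14 genes detected, close to the share of all genes. Itgb4, the integrin chain of hemidesmosomes, stood at 10.70, 10.39 and 10.42, and the hemidesmosome linker Dst at 8.51 ± 0.08. Of the 7 probes of Dst, 2 were detected on all 3 arrays. The growth factor receptor Egfr had 8.19 ± 0.04, with 2 of its 4 probes detected on all 3 arrays and 1 undetected on all arrays. Sox2, a factor of stem and progenitor cells, had 6.15 ± 0.10 and the neurotrophin receptor Ngfr 5.62 ± 0.29. The keratins that define basal cells, Krt5, Krt14, Krt15 and Krt17, and their regulator Trp63 were undetected. Among squamous and cornified genes, 3 of 22 were detected, namely the suprabasal keratin Krt10 (9.65, 9.77 and 9.68), the cornified desmosome protein Cdsn and periplakin (Ppl), whereas Krt1, Krt13, Krt4, Krt6a, Krt6b and Krt16 were not. Of 9 myoepithelial and smooth muscle genes, 3 were detected, among them smoothelin (Smtn, 9.87 ± 0.24) and myosin light chain kinase (Mylk, 7.72 ± 0.28), and smooth muscle actin (Acta2), Myh11, Cnn1 and Tagln were undetected, Acta2 being detected with a threshold of 0.05.

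Mesenchymal and EMT genes had the highest share of the lineage lists, 9 of 13 genes detected, with a median level of 9.72 among them. EMT is the passage of epithelial cells to a mesenchymal, mobile state. The receptor tyrosine kinase Axl, which binds Gas6, stood at 12.85, 12.95 and 12.73. S100a4, a calcium-binding protein of mobile cells, had 11.28, 11.16 and 11.27. The EMT transcription factors Twist2 (9.77 ± 0.04), Zeb1 (9.72 ± 0.20), Twist1 (8.22 ± 0.37), Zeb2 (7.35 ± 0.06), Prrx1 (6.62 ± 0.08) and Snai1 (5.94 ± 0.20) were all detected. N-cadherin (Cdh2), Foxc2, Tgfbi and Mmp2 were not. The fibroblast list, which shares Twist2, had 4 of 15 genes detected. It held Col6a1 (7.76 ± 0.30), Pdgfra (7.02 ± 0.19) and Col1a1 (5.57, 6.50 and 6.09), while Col1a2, Col3a1, Col6a2, Dcn, Lum and Pdgfrb were undetected. The labels give a salivary gland origin, and the acinar, ductal and basal lists each held both detected members, such as Aqp5, Wfdc2, Krt8, Elf3 and Itgb4, and undetected ones, such as Amy1, Krt18, Krt5, Krt14 and Trp63. Of these detected members, Krt8 (percentile 3.95) and Elf3 (percentile 0.14) lay near the lowest detected level.

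**Figure D2:**
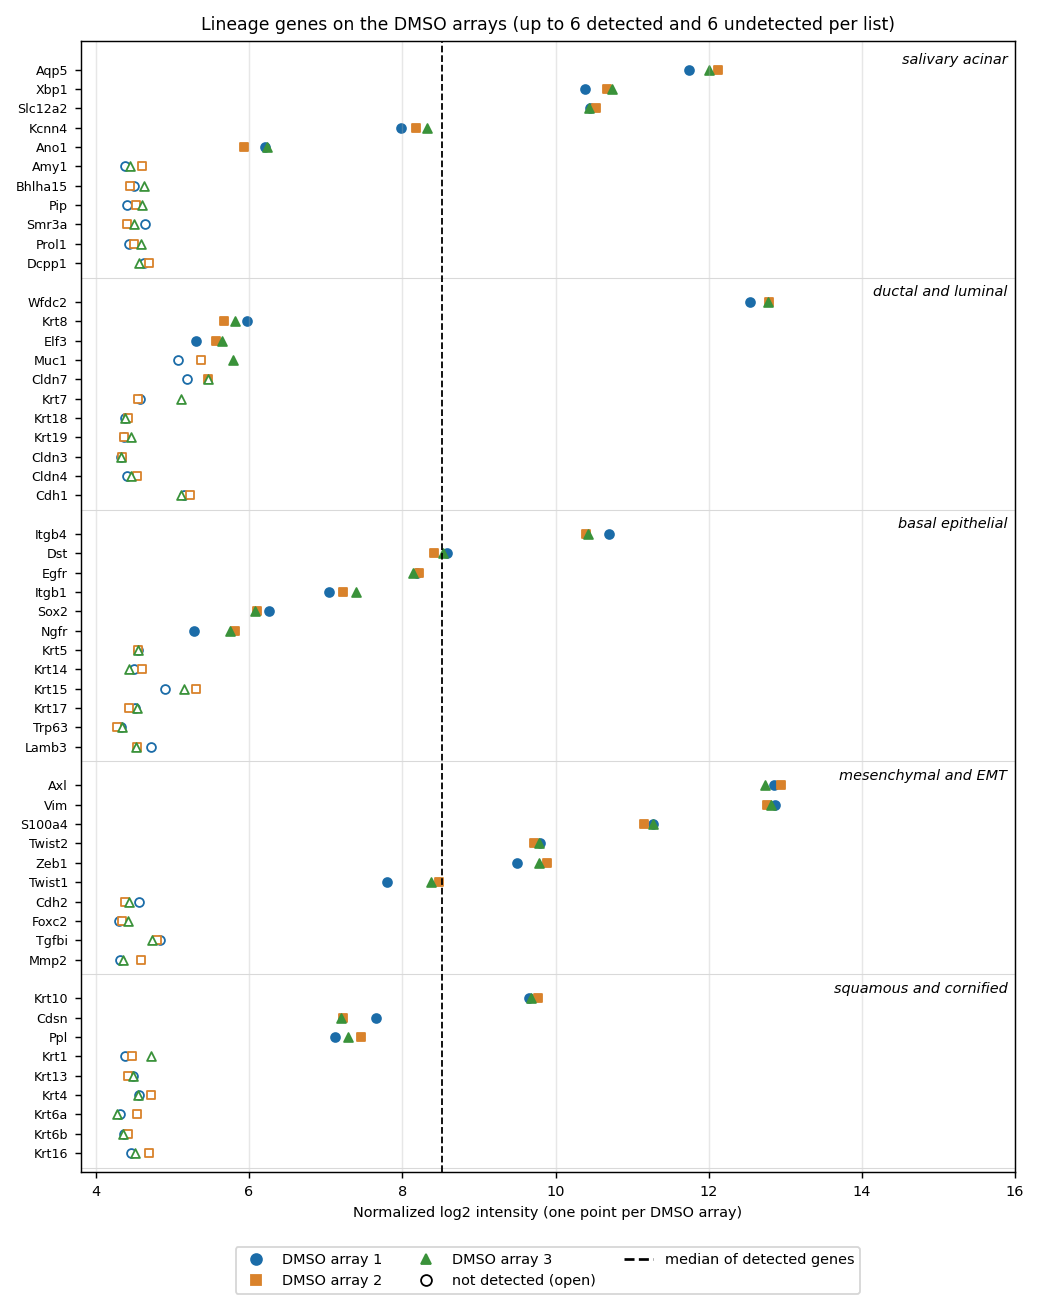
Normalized log2 intensity (horizontal axis) of lineage genes, with up to 6 detected and 6 undetected members of 5 lists, 1 point per DMSO array, and open points where the probe was not detected on that array. The dashed line is the median of detected genes, 8.51. Aqp5, Wfdc2, Axl and Vim lie far to the right, while keratins other than Krt10 and Krt8 lie at background.

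Markers of other cell types were mostly undetected, but 54.6% of all genes were also detected on 0 arrays and 41.5% on all 3. The share detected was 28.6% for the macrophage and 21.4% for the endothelial list, beside 25% for the acinar and 13.6% for the ductal list. None of the lymphocyte (10 genes), neural and glial (10), skeletal muscle (10), hepatocyte (10) or germ cell (8) genes was detected on all 3 arrays. None of 9 adipocyte genes was detected on all 3 arrays, and Pparg and Lipe were detected on 1 or 2 arrays. Of 14 macrophage and myeloid genes 4 were detected: Laptm5 (12.27, 12.41 and 12.45), a lysosomal membrane protein, Cd14 (7.79 ± 0.20), the mannose receptor Mrc1 (6.89 ± 0.17) and lysozyme Lyz2 (5.82 ± 0.13). The defining markers Ptprc (CD45), Adgre1 (F4/80), Itgam, Cd74, Tyrobp and Fcer1g were undetected. Of 14 endothelial genes Plvap (8.35 ± 0.24), Flt1 (6.03 ± 0.18) and Tie1 (5.64 ± 0.11) were detected, and Pecam1, Cdh5, Kdr, Tek, Vwf and Emcn were not. Of the 4 genes of X inactivation and the Y chromosome, Kdm5d was detected (6.54, 6.72 and 6.83), Uty on 2 arrays, and Xist and Eif2s3y on 0.

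The stem and progenitor list had 8 of 18 genes detected, 44.4%, near the 41.5% of all genes. The median level among them was 9.60. Beside Aldh3a1 these were the tetraspanin Cd9 (12.45, 12.44 and 12.32), Lrig1 (11.08, 11.14 and 11.06), which restrains EGF receptor signalling in epithelial stem cells, and the Ets factor Etv4 (9.86 ± 0.13). The arrays differed by 0.13 for Cd9, 0.07 for Lrig1 and 0.26 for Etv4. Cd44, the hyaluronan receptor widely used to sort cancer stem cells, was detected on 1 of 6 probes (9.35, 9.30 and 9.33), and its 5 other probes were undetected on all 3 arrays. Bmi1, a Polycomb protein, had 8.32 ± 0.15, the RNA-binding protein Msi2 7.66 ± 0.26 and Sox9 5.76 ± 0.17. The sorting markers Cd24a, Prom1 (CD133), Procr and Abcg2, the aldehyde dehydrogenases Aldh1a1 and Aldh1a3, and the R-spondin receptor Lgr5 were undetected. Of 11 pluripotency genes Klf4 (8.04 ± 0.11), Sox2 and Dppa5a (5.51 ± 0.10) were detected, and Pou5f1, Nanog, Lin28a, Zfp42, Esrrb and Utf1 were not.

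**Figure D3:**
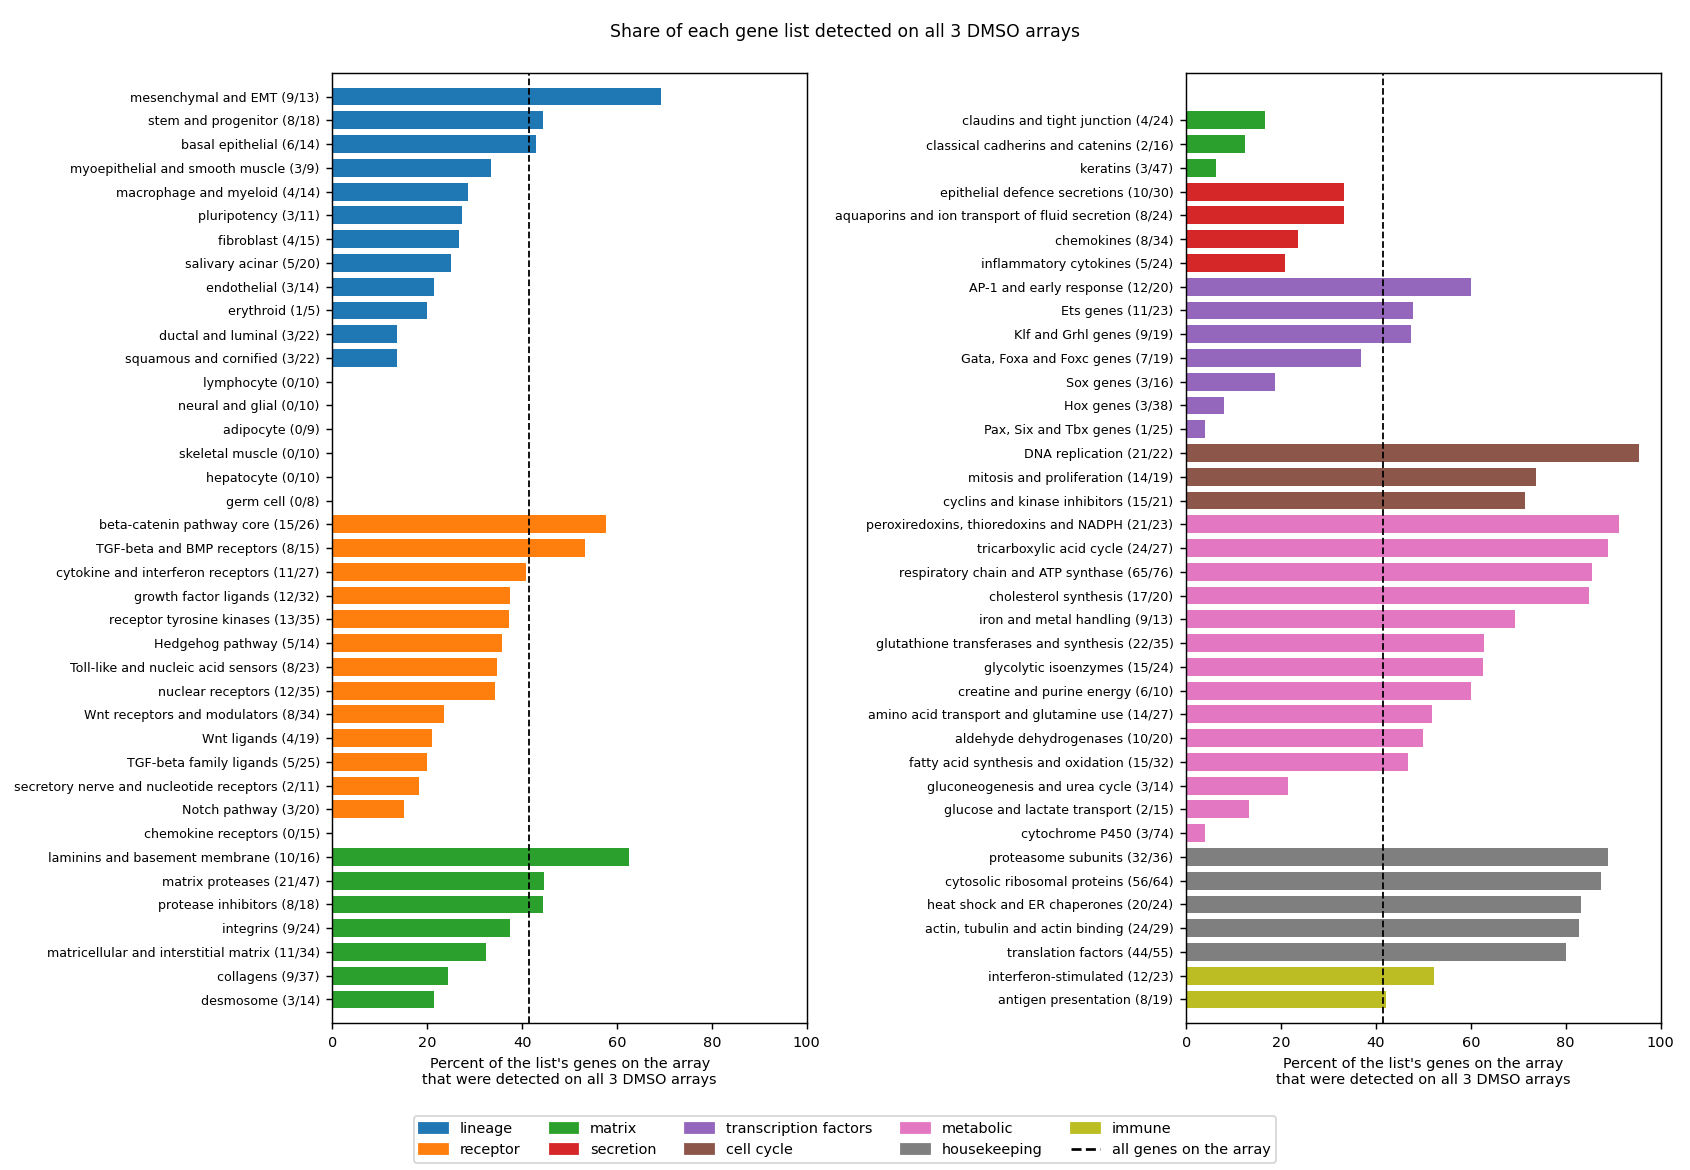
Percent of the genes of each list that were detected on all 3 DMSO arrays (horizontal axis), for the 77 lists with at least 5 genes on the array, coloured by class, with the counts in brackets. The dashed line is the share of all genes, 41.5%. DNA replication (21 of 22) and the respiratory chain (65 of 76) lie far right of it, and keratins (3 of 47) and cytochrome P450 genes (3 of 74) far left.

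Wnt pathway genes were described from ligand to nucleus, since the series concerns inhibitors of this pathway. Of the Wnt ligands, 4 of 19 were detected: Wnt7b (8.57, 8.36 and 8.17), Wnt5a (6.80 ± 0.13), Wnt5b (6.40 ± 0.20) and Wnt10a (5.54 ± 0.15). Wnt1, Wnt2, Wnt3, Wnt3a and Wnt4 were among the 15 undetected. Of the receptors and modulators, 8 of 34 were detected, and the shares of both lists lay below the 41.5% of all genes. Ryk, an atypical receptor, had 10.96, 10.95 and 10.94, almost the same on all 3 arrays. Wls, which carries Wnt proteins to the cell surface, had 8.02, 8.57 and 8.74, the first array lowest. Fzd7 (7.33 ± 0.16), Fzd2 (6.24 ± 0.42) and Fzd6 (6.19 ± 0.29) were the detected Frizzled receptors, and both coreceptors, Lrp6 (7.22 ± 0.14) and Lrp5 (6.02, 6.91 and 6.55), were detected. The first and second arrays differed by 0.90 for Lrp5. The ubiquitin ligases Znrf3 and Rnf43 and the R-spondin receptors Lgr5 and Lgr6 were undetected.

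The β-catenin pathway core had 15 of 26 genes detected, with a median level of 8.56 among them. This share was 57.7%, against 41.5% of all genes, 21.1% of the Wnt ligands and 23.5% of the receptors and modulators. β-catenin itself (Ctnnb1) stood at 12.04, 12.11 and 12.24, and its second probe at 10.89, 10.51 and 10.74. Of the destruction complex, Gsk3b (7.21 ± 0.32), Apc (6.98 ± 0.07), Gsk3a (5.97 ± 0.17) and the ligase subunit Btrc (9.08 ± 0.05) were detected, and Axin2 and the casein kinase Csnk1a1 were not. Of the TCF/LEF factors Tcf7l1 (9.25, 9.56 and 9.33) and Tcf7l2 (6.37 ± 0.12), which encodes TCF4, were detected, and Lef1 was not. The coactivators Pygo2 (9.85 ± 0.08), Ep300 (8.90 ± 0.11) and Bcl9l (8.32 ± 0.15) were detected, as was Ctnnbip1 (8.43 ± 0.20), which blocks the binding of β-catenin to TCF.

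**Figure D4:**
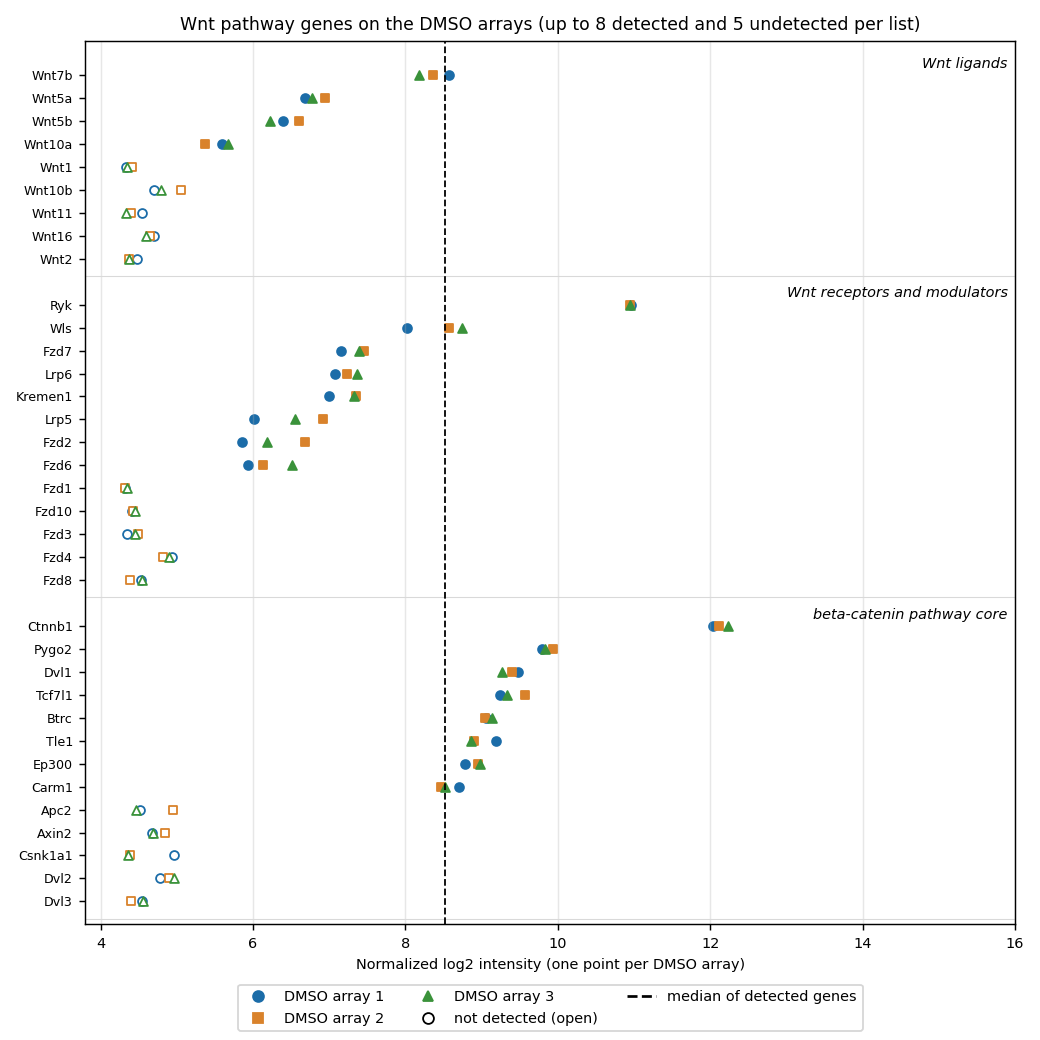
Normalized log2 intensity (horizontal axis) of Wnt ligands, receptors and modulators, and the β-catenin pathway core, with up to 8 detected and 5 undetected members of each list, 1 point per DMSO array and open points where undetected. Ctnnb1 lies near 12 and Ryk near 11 on all 3 arrays, and most other detected receptors lie left of the dashed median of detected genes.

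Of the other signalling systems, the TGF-β and BMP receptors were detected above the share of all genes, 53.3%, and the rest at or below it. Over all receptor and ligand lists 106 of 331 genes were detected, 32.0%. Receptor tyrosine kinases had 13 of 35 genes detected, among them Axl, Igf2r (9.04 ± 0.18), Epha2 (8.80 ± 0.14) and Egfr, and Met, the receptor of hepatocyte growth factor, at 6.52 ± 0.25. Fgfr1, Fgfr2, Fgfr3, Fgfr4, Mst1r and Insr were undetected. Growth factor ligands had 12 of 32 genes detected, among them Vegfb (10.82, 11.26 and 11.32), Pdgfa (10.92 ± 0.22), Fgf7 (9.64, 10.03 and 10.27) and Vegfa (9.52, 9.93 and 9.63). The first array was the lowest for each of these 4. Hbegf (7.13 ± 0.22) and Btc (6.77 ± 0.28) were the detected EGF receptor ligands, and Egf, Tgfa, Ereg, Epgn and Nrg1 were not detected.

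TGF-β and BMP receptors had 8 of 15 genes detected. Tgfbr2 stood at 10.42, 11.08 and 11.03, again lowest on the first array, Tgfbr1 at 9.66 ± 0.24 and the BMP receptor Bmpr1a at 9.68, 9.32 and 9.44. Of the family's ligands, 5 of 25 were detected, among them Tgfb1 (7.64 ± 0.12) and the activin chain Inhba (5.85 ± 0.13), with the BMPs Bmp2 to Bmp7 undetected. Notch genes had 3 of 20 genes detected, the fringe Rfng, the coactivator Maml1 and the ligand Dll1, while Notch1, Notch2, Notch3, Jag1, Jag2 and Hes1 were undetected. Hedgehog genes had 5 of 14 genes detected, with Smo (7.74 ± 0.31) detected and Ptch1, Gli1 and Hhip undetected, Hhip being detected with a threshold of 0.05. Nuclear receptors had 12 of 35 genes detected, among them Nr2f1 (10.77, 11.15 and 10.98), Nr2f6, Rxrb and Esrra, and 19 with a threshold of 0.05. The acetylcholine receptors of saliva secretion, Chrm1 and Chrm3, were undetected, with 2 of 11 nerve and nucleotide receptors detected. None of 15 chemokine receptors was detected.

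Matrix and adhesion genes came to 80 of 276, 29.0%, against 41.5% of all genes. Basement membrane genes had the highest share of these lists, 10 of 16 genes detected, with a median level of 9.10 among them. Agrin (Agrn) stood at 11.11, 11.18 and 11.18, perlecan (Hspg2) at 10.50, 10.94 and 10.96, the laminin chain Lamc1 at 9.85 ± 0.06 and nidogen (Nid1) at 8.86 ± 0.36. Collagens had 9 of 37 genes detected, with a median level of 8.81 among them. They included Col18a1 (12.42, 12.60 and 12.52), a basement membrane collagen that is the source of endostatin, Col16a1 (10.48 ± 0.06), Col5a1 (10.11 ± 0.09) and the type IV chains Col4a1 (9.66 ± 0.13) and Col4a2 (8.81 ± 0.13). Integrins had 9 of 24 genes detected, among them Itga3 (10.89 ± 0.11), Itgb4 and Itgb7 (10.26 ± 0.13). Itgav, a chain of the vitronectin receptor, had 7.94, 8.78 and 8.96, the first array lowest.

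Among matricellular genes 11 of 34 were detected, with Sparc (10.16, 10.18 and 10.18) almost the same on all arrays. Against 41.5% of all genes, the shares were 32.4% for matricellular genes, 44.7% for matrix proteases and 44.4% for protease inhibitors. Matrix proteases had 21 of 47 genes detected, among them cathepsin B (Ctsb, 12.47 ± 0.14), the serine protease Htra1 (11.76, 11.07 and 11.11), membrane-type metalloprotease Mmp14 (9.93 ± 0.19) and Adam17 (9.25 ± 0.10). Protease inhibitors had 8 of 18 genes detected, among them the cathepsin inhibitor Cstb (13.84, 13.75 and 13.81), Slpi, Wfdc2, Serpinb6a (12.42 ± 0.04) and Timp2 (11.50 ± 0.09).

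Epithelial junction genes were mostly undetected, each list below the 41.5% of all genes. Keratins had 3 of 47 genes detected, claudins and tight junction genes 4 of 24 and desmosome genes 3 of 14. Cldn12 (10.03 ± 0.11), the scaffold Tjp1 (8.37 ± 0.22) and the plakophilin Pkp2 (8.76 ± 0.11) were detected, as was Krt10. Of 16 classical cadherins and catenins, the catenins Ctnna1 (12.03, 12.23 and 12.50) and Ctnnb1 were detected and no classical cadherin was, E-cadherin aside with a threshold of 0.05.

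Of the secreted and transport genes, 31 of 111 were detected (27.9%), against 41.5% of all genes. Epithelial defence secretions had 10 of 30 genes detected, among them S100a11 (14.54, 14.65 and 14.64), Slpi, Wfdc2 and S100a6 (11.98 ± 0.22), and Saa1, Saa2, S100a8, S100a9, Pigr and Cfb were undetected. Of 34 chemokines 8 were detected. Cxcl1, which attracts neutrophils, ranked 95 of all genes with 13.30, 13.33 and 13.58. Cxcl12 followed among the chemokines with 8.92, 10.05 and 9.86, and 2 of its 5 probes were undetected. The cytokines Il1a, Il1b, Il6, Il10, Il12a and Il17a were undetected, in a list with 5 of 24 genes detected. Of the fluid secretion genes 8 of 24 were detected, among them the water channel Aqp1 (11.74, 11.49 and 11.47) beside Aqp5.

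Of the transcription factor genes, 44 of 158 were detected (27.8%), against 41.5% of all genes. The Hox list and the Pax, sine oculis homeobox and T-box list lay far below that share. Ets genes (47.8%) and Klf and Grhl genes (47.4%) lay near it. Hox genes had 3 of 38 genes detected: Hoxa7 (10.34, 10.19 and 10.06), Hoxa5 (8.83, 9.34 and 9.33) and Hoxa13 (6.02 ± 0.13). Genes of the Pax, sine oculis homeobox and T-box families had 1 of 25 genes detected, Tbx3 alone, and 2 with a threshold of 0.05. Ets genes had 11 of 23 genes detected, among them Ets1 (11.07, 10.85 and 10.63), Etv4 and Ets2 (9.48 ± 0.10). Klf and Grhl genes had 9 of 19 genes detected, among them Klf9 (9.97 ± 0.13), Klf5 (9.79 ± 0.25) and Klf3 (9.07 ± 0.07), and the 3 Grhl genes, regulators of epithelial junctions that were named after their values were seen, were undetected. AP-1 and early response genes had 12 of 20 genes detected, among them Ier3 (12.24, 12.43 and 12.19), Dusp6 and Fosl1, with Fos, Fosb, Atf3, Egr2 and Egr3 undetected, and Egr3 detected with a threshold of 0.05.

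Cell cycle genes were detected in 50 of 62, 80.6%, against 41.5% of all genes. DNA replication genes had 21 of 22 genes detected, with a median level of 10.51 among them, and included the helicase subunits Mcm4 (12.73, 12.87 and 12.84) and Mcm5 (12.14 ± 0.21), Rpa1 (11.92 ± 0.16) and thymidylate synthase (Tyms, 11.80 ± 0.11), with the polymerase subunit Pola1 undetected. Mitosis genes had 14 of 19 genes detected: the centromere histone Cenpa (13.03, 13.13 and 13.08), Prc1 (12.52 ± 0.08), survivin (Birc5, 12.32 ± 0.11) and Cdk1 (11.71 ± 0.14) were the brightest. Cyclins and kinase inhibitors had 15 of 21 genes detected. Cyclin D1 (Ccnd1) had 12.23, 12.71 and 12.77 and the inhibitor Cdkn1a (p21) 11.95, 11.54 and 11.44, and the first array was lowest for Ccnd1 and highest for Cdkn1a. Cdkn2a and Cdkn2b, the inhibitors of the Ink4 locus, were undetected, but Cdkn2a was detected with a threshold of 0.05.

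Metabolic genes were detected in 225 of 409, 55.0%, against 41.5% of all genes, and the lists ranged from 3 of 74 to 21 of 23. The tricarboxylic acid cycle had 24 of 27 genes detected and the respiratory chain with ATP synthase 65 of 76. Cholesterol synthesis had 17 of 20 genes detected, and peroxiredoxins, thioredoxins and NADPH enzymes 21 of 23. Cytochrome P450 genes, typical of liver, had 3 of 74 genes detected, and 5 with a threshold of 0.05.

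Among the glycolytic isoenzymes 15 of 24 were detected (62.5%, against 41.5% of all genes). The common forms Gapdh (14.47, 14.47 and 14.61), Ldha (13.92, 14.01 and 13.73), Pkm (13.23, 13.73 and 13.82) and Tpi1 (13.57, 13.53 and 13.56) were the brightest. Hexokinase 2 (Hk2, 11.26 ± 0.16) and the enolase Eno3 (11.02 ± 0.02), best known from muscle, were detected, and the liver, muscle or testis forms Pklr, Gapdhs, Pgk2, Pgam2 and Ldhc were not. Of the glucose and lactate transporters 2 of 15 were detected: Slc2a1 (GLUT1, 11.90, 11.94 and 11.69) and Slc2a8 (5.87 ± 0.23). The lactate carriers Slc16a1 and Slc16a3 were undetected. Fbp2, the muscle form of a gluconeogenic enzyme, had 10.18, 10.12 and 10.34, while Pck1, G6pc and Fbp1 were undetected.

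Aldehyde dehydrogenases had 10 of 20 genes detected (50%, near the 41.5% of all genes), with a median level of 9.70 among them. Beside Aldh3a1 they were the mitochondrial Aldh2 (11.29, 11.56 and 11.49), Aldh18a1 (11.14 ± 0.16), which makes a proline precursor, Aldh3a2 (10.54 ± 0.19), Aldh1l2 (9.97 ± 0.06), Aldh5a1, Aldh3b1, Aldh4a1, Aldh6a1 and Aldh16a1. All 4 Aldh1a genes on the array, Aldh1a1, Aldh1a2, Aldh1a3 and Aldh1a7, a subfamily that includes the enzymes of retinoic acid synthesis, were undetected. Glutathione enzymes had 22 of 35 genes detected, among them Gstp1 (14.09 ± 0.10) and Gpx1 (13.63, 13.78 and 13.75).

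Amino acid genes had 14 of 27 genes detected. The share was 51.9%, with 46.9% for fatty acid genes and 69.2% for iron and metal genes, against 41.5% of all genes. Psat1, an enzyme of serine synthesis, had 13.42, 13.58 and 13.57, asparagine synthetase (Asns) 12.79, 12.97 and 13.13 and the leucine carrier Slc7a5 12.93, 12.79 and 12.96. Phgdh (10.78 ± 0.24) and the cystine carrier Slc7a11 (10.03 ± 0.11) were detected too, and the glutamine carrier Slc1a5 and glutamine synthetase (Glul) were not. Fatty acid genes had 15 of 32 genes detected, among them Fads1 (12.75 ± 0.08), Acly (12.46 ± 0.07) and Elovl5 (12.14 ± 0.07), and Fasn and Cpt1a were undetected, Fasn being detected with a threshold of 0.05. Iron and metal genes had 9 of 13 genes detected, with the transferrin receptor (Tfrc) at 10.75, 10.77 and 10.74 on the 3 arrays.

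Genes of interferon response and antigen presentation were detected near the background share, in 20 of 42 (47.6%). Interferon-stimulated genes had 12 of 23 genes detected, with a median level of 6.25 among them, against 8.51 for all detected genes. Irf1 (10.78, 10.84 and 10.74), Irf3 (10.61 ± 0.15), Ifit2 (7.78 ± 0.18) and Gbp2 (7.21 ± 0.11) were the brightest. Ifit1, Oas1a, Oas2, Mx1, Mx2 and Irf7 were undetected. β2-microglobulin (B2m), the light chain of MHC class I, had 12.66, 12.81 and 13.22, and H2-K1 was detected only with a threshold of 0.05. In the list of antigen presentation 8 of 19 were detected.

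The spread among the arrays was small but not even. Normalized levels of 10001 detected probes correlated at r = 0.994 between arrays 2 and 3, 0.988 between arrays 1 and 2 and 0.986 between arrays 1 and 3. These correlations are across probes, which share each array's RNA and are not independent replicates. The first array was the farthest from the other 2 in 3423 of 6881 genes (49.7%), and the median SD of the remaining 2 arrays was 0.088 without the first, 0.1396 without the second and 0.131 without the third. An SD above 0.5 was found in 30 genes, 0.436% of those detected, and the first array was the farthest in 25 of them. In 9 of those 25 it was higher than the others and in 16 lower. Over all detected genes the first array was the highest in 39.1%, the second in 29.6% and the third in 31.3%.

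The 12 genes with the largest SD were H2ac21, Dpysl3, P4ha1, Ppbp, Ddit3, Tbx3, Cxcl12, H2ac11, Aftph, Emilin1, Pdk1 and Zbp1. Ddit3, which encodes the stress factor CHOP, had 9.40, 8.42 and 8.27, and its second probe had 8.47, 7.63 and 7.75. Both Ddit3 probes put the first array highest. P4ha1, a collagen prolyl hydroxylase, had 5.73, 6.98 and 6.34, and Pdk1, a kinase that restrains pyruvate dehydrogenase, 7.74, 8.81 and 8.62. Both were lowest on the first array. Tbx3, a factor of early organ formation, had 5.91, 7.09 and 6.77, the matrix glycoprotein Emilin1 6.15, 7.10 and 7.19, the chemokine Ppbp 6.14, 7.27 and 7.11 and the nucleic acid sensor Zbp1 5.55, 6.58 and 6.49. The first array was the lowest for these 4 as well. The 2 dimmer detected probes of Cxcl12 had 7.14, 7.28 and 6.67 and 6.72, 7.45 and 6.63, so the low first array was seen on the brightest probe only.

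**Figure D5:**
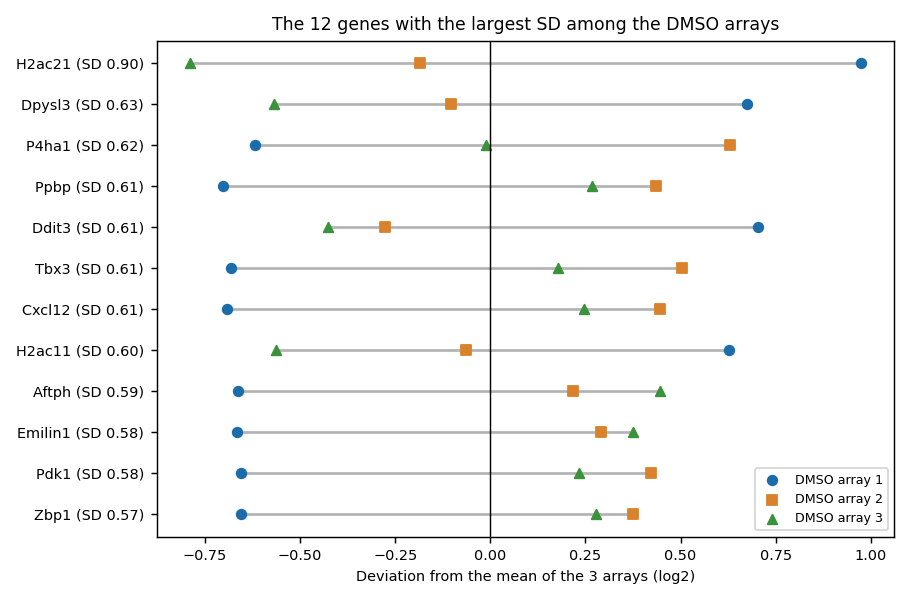
Deviation of each DMSO array from the mean of the 3 (horizontal axis, log2) for the 12 genes with the largest SD, which stands in brackets beside each name. The first array lies at an end for all 12 genes, on the left for 8 and on the right for H2ac21, Dpysl3, Ddit3 and H2ac11.

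H2A histone genes stood out among the variable genes and were looked at as a family after their values were seen. H2ac21 had 10.82, 9.66 and 9.05 and H2ac11 11.20, 10.51 and 10.01. The brightest member, H2ac24, had 14.89, 14.64 and 14.26. Of the 11 H2ac genes detected on all 3 arrays, 10 were highest on the first array, intermediate on the second and lowest on the third, an order found in 21.2% of all detected genes. The same order was found in 1 of 8 detected H2bc genes, 1 of 6 H3c genes and 0 of 6 H4c genes. H2A genes are near-identical copies whose probes can bind each other's transcripts, so the 11 genes are not separate measurements.

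RefSeq windows were found for 29 of 32 detected core and linker histone genes. Of these 29, 17 held TATAAA (58.6%) and 24 held CCAAT (82.8%), against 6.87% and 38.5% of windows of all detected genes. The 100 bases before the start of both H2A genes on chromosome 3 with a high rank or a high SD show these motifs, in capitals.
H2ac20, chr3:96220881-96220980, minus strand: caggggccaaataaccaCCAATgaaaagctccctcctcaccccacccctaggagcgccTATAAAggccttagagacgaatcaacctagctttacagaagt
H2ac21, chr3:96219785-96219884, plus strand: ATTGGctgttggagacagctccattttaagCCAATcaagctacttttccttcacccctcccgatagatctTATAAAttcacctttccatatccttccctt
The TATAAA started 42 bases before the start of H2ac20 and 30 bases before that of H2ac21. Both stretches held CCAAT, and neither held GGGCGG. H2ac20 had 14.65, 14.24 and 14.08, in the same order of arrays as H2ac21 and over a narrower range.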

How the data were processed

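Total RNA was labelled as biotinylated cRNA and hybridised to Illumina mouse bead arrays, per the labels' protocols. Per the file headers, each array has a linear signal intensity and a detection p-value per probe in the deposited table. The submitters' processing notes name GenomeStudio 2010.1. The deposited signal intensities were not normalized between arrays. The authors' processed intensities served as an alternative, and their normalization is not given in the sources used here.

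The 3 DMSO arrays were normalized alone with neqc (limma 3.58.1, R 4.3.3): normexp background correction from the detection p-values, an offset of 16, log2 and quantile normalization. This was tested on simulated data. Genes come from the platform annotation, which can be old: 23978 of 25697 probes had a symbol. The brightest probe, among those detected on the most arrays, stood for a gene. No test was run, since 1 group is described. The 78 gene lists and the genes were chosen with earlier results of these data known. Named genes were the 30 brightest, the 12 of largest SD, the 5 markers and, of each list, up to 4 bright detected and 6 undetected members, with further members for lineage, receptor, matrix and metabolic lists. Alternatives changed the detection threshold, the arrays required, the probe rule, the background correction, the offset, the normalization and the source of values, and left out each array in turn. Promoter windows, 250 bases before to 50 after a start, came from RefSeq (GRCm38.p6).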

Additional observations from a re-analysis of the deposited data

How the results depend on the processing

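No paired analysis was possible because only the DMSO group is described and its results come from no test. Of 439 recomputed values 420 stayed within their limits and 19 moved. With detection p under 0.05 the genes detected on all 3 arrays numbered 7525, and list counts moved to 6 ductal and luminal, 1 adipocyte, 1 skeletal muscle, 2 erythroid, 2 X inactivation and Y-linked, 5 Notch pathway, 19 nuclear receptor, 2 Pax, sine oculis homeobox and T-box and 5 cytochrome P450 genes. With detection on at least 2 of 3 arrays the count was 1 for adipocyte and 2 for X inactivation and Y-linked genes. Leaving out an array gave 0 to 1 adipocyte genes and 1 to 2 X inactivation and Y-linked genes. The median SD ranged from 0.088 to 0.1396 when 1 array was left out, lowest without the first. Averaging the detected probes of a gene put Aldh3a1 at percentile 99.67, Slpi at 99.14, Vim at 97.94, Wfdc2 at 85.37 and Aqp5 at 92.38, and kept 83 of the 100 brightest genes. No background correction, median scaling and the authors' processed values each kept all 100. The cause of these moves was not tested. Of 2733 detected genes with at least 2 probes, 1157 had a probe detected on 0 arrays, so detection depends on the probe as well as on the RNA.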

Other observations

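Some of the 100 brightest genes belong to no list and were named after their values were seen. Irgm1, an interferon-induced GTPase, ranked 71 with levels of 13.70, 13.66 and 13.54. Prl2c3, a gene of the prolactin family known from placenta and proliferating cells, ranked 91 with 13.46, 13.45 and 13.38. Odc1, the first enzyme of polyamine synthesis, ranked 53 with 13.92, 13.90 and 13.92, and the glycyl-tRNA synthetase Gars ranked 34 with 14.35, 14.06 and 14.32.

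Of the 10001 probes detected on all 3 arrays, 576 carry no gene symbol in the annotation used here. They make up 7 of the 20 brightest probes and 15 of the 100 brightest. The share of genes detected ran from 33.3% on chromosome 7 to 49.0% on chromosome 12 among the autosomes, and was 34.6% on the X chromosome and 1 of 15 genes on the Y chromosome.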
